A study of Arabidopsis thaliana with 15 samples.

Results

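The UDP-glycosyltransferase genes of Arabidopsis thaliana roots were followed after supply of nitrate or ammonium to plants starved of nitrogen. Members were all genes whose symbol starts with UGT followed by a number and which had a probe set annotated to that gene alone. This gave 47 genes of the 13513 probe sets with 1 annotated gene, among 22746 probe sets in all, and each gene had 1 such probe set. The rule itself used no expression value, but the family was chosen with earlier results of these data known. The names UGT76B1, UGT72E2, UGT76D1 and UGT78D2, given with the rule as examples of the family, were all among them.

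All plants were of the Columbia-0 accession, grew hydroponically to growth stage 5.10 and spent 26 h without nitrogen, the roots before supply included. The groups were roots 1.5 h and 8 h after 1 mM nitrate, roots 1.5 h and 8 h after 1 mM ammonium, and roots taken before any supply. Each group had 3 biological replicates, each pooled from the roots of at least 5 plants, and each of the 15 samples was hybridised to an Affymetrix ATH1 array. Levels are RMA values on a log2 scale. No root without nitrogen was taken at 1.5 h or 8 h, so every change against the roots before supply also holds the time that had passed and the time of day, and the counter-ions of the supplies were not given in the sources used here. In whole roots, fewer cells of a type and less RNA per cell cannot be told apart.

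UDP-glycosyltransferases move a sugar from a UDP-sugar onto a small acceptor, which alters how that molecule is stored, transported or recognised. In plants the family acts on hormones, defence signals, lignin precursors, flavonoids, sterols and glucosinolate intermediates, and the number and letter in each symbol give the group within the family. In roots the same enzymes are known for cytokinin and auxin conjugates, salicylic acid conjugates, and glucosides of coumarins and monolignols. The roles given below were taken from such background knowledge and were not measured here.

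Changes are given as a difference in log2 level ± the standard error of limma's fit over all 15 samples (n = 3 in each group). A gene was called, and was said to rise or to fall, where limma's adjusted p over all 22746 probe sets was below 0.05. The comparisons with the roots before supply share the same 3 control samples. Precision is limited by the number of arrays, and the median standard error over all probe sets was 0.0921 log2 when a pair of groups was compared. The deposited values carried no detection calls. The lower quartile of an array lay between 4.36 and 4.52 log2, and 30 members were above it in every sample, 5 in some (UGT71B5, UGT72B3, UGT73B4, UGT78D1 and UGT84A1) and 12 in none. No fold is given for members that were not above it in every sample, because they were not shown to be above background. Their differences are those of the RMA values as given, and where the lower side is background they do not measure the size of the change in transcript.

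The samples could be checked against few markers. Listed genes were looked up in an annotation that named no gene for 8730 probe sets. Here and below, a listed gene without a match may still have a probe set on the array. PYK10, the beta-glucosidase of root ER bodies, was the only root marker of 15 matched to a probe set of its own in that annotation, at 12.16 to 12.92 log2. At 8 h it was higher than before supply, by 0.58 ± 0.08 with nitrate and by 0.61 ± 0.08 with ammonium, and it was higher at 1.5 h of ammonium by 0.27 ± 0.08. It also rose between 1.5 h and 8 h, by 0.39 ± 0.08 with nitrate and 0.34 ± 0.08 with ammonium. RCA, which encodes Rubisco activase, was the only shoot marker of 10 matched in this way, at 5.82 to 6.46 log2. It was lower at 8 h than at 1.5 h of ammonium by -0.42 ± 0.10. Across all probe sets the correlation of replicates within a group lay between r = 0.9936 and 0.9978. Of 24 core hypoxia genes, a list chosen after the data had been seen, 13 were measured. With nitrate 3 of these rose at 1.5 h and 0 at 8 h, and with ammonium 8 rose at 1.5 h and 6 at 8 h. Their mean deviation from each gene's average varied within groups. It was 0.53, 1.26 and -1.10 log2 at 1.5 h and 0.31, -1.68 and -1.23 at 8 h of nitrate. With ammonium it was 1.42, 0.38 and 1.12 at 1.5 h and -0.20, 1.22 and 1.23 at 8 h. Before supply it was -1.06, -0.68 and -1.53. The part of oxygen supply or of tissue makeup in the changes below was not tested.

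Members were called in a share above that of all probe sets in each comparison, by a small margin in some, and this excess was not tested. All probe sets include 8730 with no named gene and 503 with several, which could hold no member. The share over the 13513 with 1 gene is not given here. At 1.5 h of nitrate 8 of 47 members were called against the roots before supply (17%), where 13.3% of all probe sets were called. At 1.5 h of ammonium the number was 15 (31.9%), beside 13.8% of all probe sets. At 1.5 h array weights gave 19 members with nitrate and 23 with ammonium, and the ammonium count was 9 without replicate 3 before supply or without replicate 1 of ammonium at 1.5 h. At 8 h the number was 14 with nitrate (29.8%), beside 20.6% of all probe sets, and 13 with ammonium (27.7%), beside 17.6%.

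Calls ran in both directions. With nitrate 3 members rose and 5 fell at 1.5 h (5.97% and 7.29% of all probe sets), and 3 rose and 11 fell at 8 h (8.93% and 11.7%). With ammonium 8 rose and 7 fell at 1.5 h (5.97% and 7.83%), and 6 rose and 7 fell at 8 h (7.72% and 9.91%). The difference in these counts between the supplies was not itself tested. The median change over the 47 members lay close to that of all probe sets in each case, at -0.05 with nitrate at 1.5 h beside -0.04 for all probe sets, 0.05 beside -0.03 with ammonium at 1.5 h, -0.02 beside -0.02 with nitrate at 8 h, and -0.05 beside -0.03 with ammonium at 8 h.

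**Figure D1:**
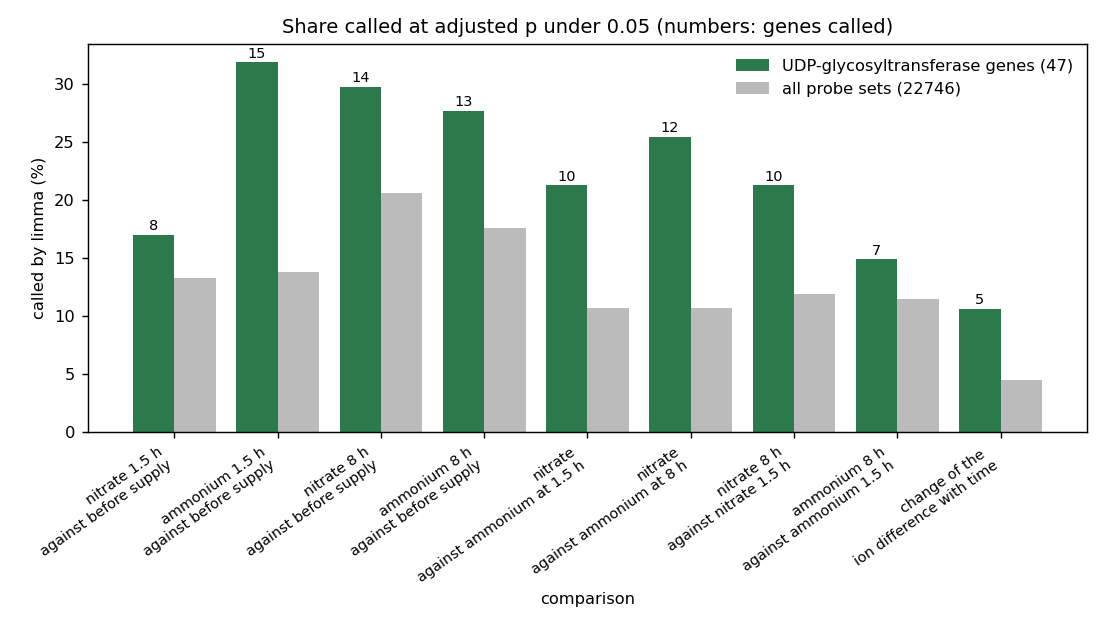
Share of the 47 UGT genes and of all 22746 probe sets called by limma (adjusted p below 0.05) in each of the 9 comparisons, in percent. All probe sets include those with no named gene or several. The share of the members stands above that of all probe sets in every comparison, most widely at 1.5 h of ammonium (31.9% beside 13.8%).

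Over the 4 comparisons with the roots before supply, 22 members were called at least once, beside 32.8% of all probe sets. By number of comparisons, 25 members were called in none, 4 in 1, 11 in 2, 4 in 3 and 3 in all 4. The last were UGT72E2, UGT76B1 and UGT80B1. These comparisons share the same control samples, and the shares of all probe sets by number of comparisons were not computed. Changes of at least 0.5 log2 without overlap between the groups were called with nitrate for 6 members at 1.5 h and 7 at 8 h (beside 5.82% and 8.55% of all probe sets), and with ammonium for 6 at 1.5 h and 5 at 8 h (beside 5.24% and 6.43%). Over all 9 comparisons 24 of the 47 members were called at least once, beside 37.9% of all probe sets. The spread between the lowest and the highest of the 5 group means had a median of 0.40 log2 over the members (0.06 to 1.60), beside 0.25 over all probe sets. It was at least 1 log2 for 5 members (10.6%, beside 5.27% of all probe sets), which were UGT73D1, UGT76D1, UGT72E2, UGT72E1 and UGT76B1.

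**Figure D2:**
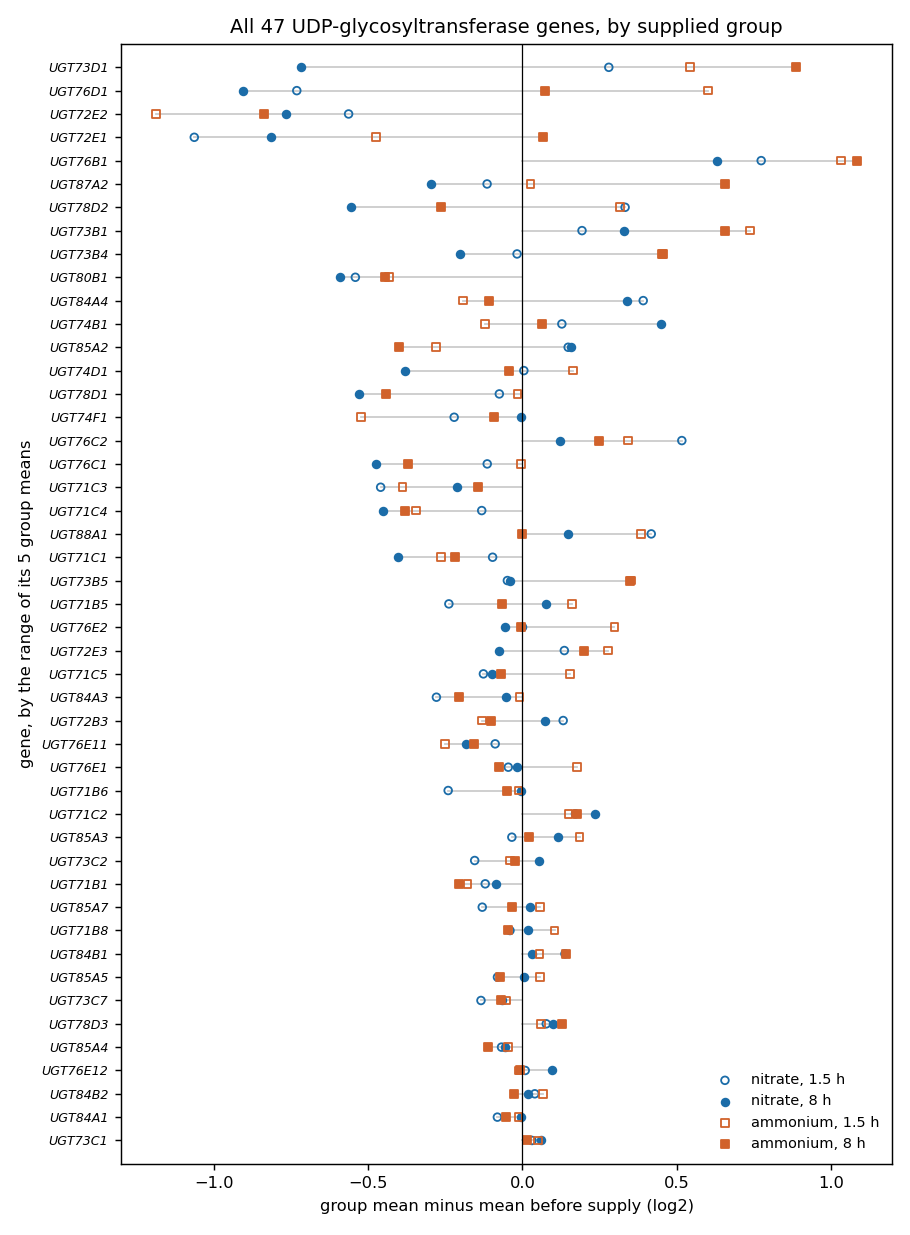
Differences in log2 level of all 47 members in the comparisons of the supplied roots with the roots before supply, with a row per gene, circles for nitrate, squares for ammonium, open symbols for 1.5 h and filled symbols for 8 h. Rows run from the widest spread of group means (UGT73D1, 1.60 log2) to the narrowest (UGT73C1, 0.06 log2).

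Among enzymes of hormones and defence signals, 11 of 20 listed genes were members. At 1.5 h, 2 rose and 1 fell with nitrate, and 3 rose and 1 fell with ammonium. At 8 h, 1 rose and 3 fell with nitrate, and 1 rose and 1 fell with ammonium. Some of the members that moved share a signal, salicylic acid and its products or cytokinin, but the group did not move together. Counts by role, here and below, are small. The shares of all probe sets that rose or fell in the same comparisons are given above, and no role was tested against them.

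UGT76B1 (AT3G11340), which glucosylates isoleucic acid, salicylic acid and N-hydroxypipecolic acid and so limits their activity in defence, rose in all 4 supplied groups. It read 10.55, 10.51 and 10.55 with nitrate at 1.5 h and 10.50, 10.34 and 10.34 at 8 h. With ammonium it read 10.87, 10.80 and 10.72 at 1.5 h and 10.84, 11.00 and 10.70 at 8 h, against 9.59, 9.78 and 9.92 before supply. No supplied sample overlapped with the roots before supply. The change was 0.77 ± 0.09 (1.71-fold, adjusted p = 1.9e-05) and 0.63 ± 0.09 (1.55-fold, adjusted p = 9.9e-05) with nitrate at 1.5 h and 8 h. With ammonium it was 1.09 ± 0.09 at 8 h (2.12-fold, adjusted p = 6.7e-07), close to that at 1.5 h, and the 8 h minus 1.5 h difference was 0.05 (95% interval -0.14 to 0.25).

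Nitrate left UGT76B1 lower than ammonium at 8 h, by -0.46 ± 0.09 (1.37-fold lower, adjusted p = 0.0032), with no overlap between the groups. At 1.5 h the same difference was -0.26 (95% interval -0.45 to -0.06) and missed the threshold (adjusted p = 0.091). It passed with a variance trend (0.046), with array weights (0.039), with only the compared groups in the fit (0.041) and without replicate 1 before supply (0.048).

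UGT76D1 (AT2G26480), which glucosylates dihydroxybenzoic acids formed from salicylic acid, moved in opposite directions with the supplies. It read 6.08, 6.49 and 6.19 with nitrate at 1.5 h and 6.06, 6.18 and 5.99 at 8 h. It read 7.60, 7.70 and 7.46 with ammonium at 1.5 h and 7.09, 7.16 and 6.91 at 8 h, against 7.10, 6.90 and 6.95 before supply. All nitrate samples were below and all samples at 1.5 h of ammonium above the roots before supply, while those at 8 h of ammonium overlapped with them. The fall with nitrate was -0.73 ± 0.11 at 1.5 h (adjusted p = 0.00014) and -0.91 ± 0.11 at 8 h (adjusted p = 9.8e-06). The rise with ammonium was 0.60 ± 0.11 at 1.5 h (adjusted p = 0.00099), and at 8 h the difference from the roots before supply was 0.07 (95% interval -0.15 to 0.30).

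The direct comparison gave UGT76D1 a level lower by -1.33 ± 0.11 with nitrate than with ammonium at 1.5 h (2.52-fold lower, adjusted p = 4.5e-07) and by -0.98 ± 0.11 at 8 h (1.97-fold lower, adjusted p = 8.6e-06). From 1.5 h to 8 h of ammonium it fell by 0.53 ± 0.11 (adjusted p = 0.0037).

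The other called members of this group changed in 1 or both supplies by smaller amounts. UGT74F1 (AT2G43840), which forms salicylic acid glucoside and glucose ester, read 5.91, 5.97 and 5.95 with nitrate at 1.5 h and 6.28, 6.02 and 6.17 at 8 h. It read 5.65, 5.67 and 5.61 with ammonium at 1.5 h and 6.07, 6.22 and 5.92 at 8 h, against 6.11, 6.21 and 6.17 before supply. It was thus lowest in the 3 samples at 1.5 h of ammonium, where the fall was -0.52 ± 0.08 (1.44-fold, adjusted p = 0.00035). By 8 h of ammonium it was 0.43 ± 0.08 higher than at 1.5 h (adjusted p = 0.0025). Nitrate exceeded ammonium by 0.30 ± 0.08 at 1.5 h (adjusted p = 0.023). That call was lost without replicate 2 or 3 of nitrate at 1.5 h, or without replicate 1 or 3 of ammonium at 1.5 h (adjusted p = 0.062 to 0.078).

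The cytokinin N-glucosyltransferases UGT76C2 (AT5G05860) and UGT76C1 are neighbouring genes. Against the roots before supply they were called at different times and in different directions, while both fell from 1.5 h to 8 h of nitrate. They were not tested against each other. UGT76C2 read 7.99, 8.18 and 8.12 with nitrate at 1.5 h and 7.78, 7.50 and 7.83 at 8 h. It read 7.91, 7.86 and 7.99 with ammonium at 1.5 h and 7.73, 7.94 and 7.82 at 8 h, against 7.60, 7.54 and 7.61 before supply. Its rise at 1.5 h was 0.52 ± 0.09 with nitrate (1.43-fold, adjusted p = 0.00067) and 0.34 ± 0.09 with ammonium (adjusted p = 0.015). The call with ammonium was lost without replicate 2 before supply (adjusted p = 0.054) or replicate 3 of ammonium at 1.5 h (0.066). By 8 h of nitrate it was lower than at 1.5 h by -0.40 ± 0.09 (adjusted p = 0.0067).

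UGT76C1 was not called at 1.5 h and fell at 8 h, by -0.48 ± 0.08 with nitrate (adjusted p = 0.00024) and by -0.37 ± 0.08 with ammonium (adjusted p = 0.0026). UGT74D1, which acts on auxin and its oxidised form, averaged 7.53 ± 0.11 at 8 h of nitrate, against 7.92 ± 0.03 before supply (SD, n = 3 each). Its fall was -0.38 ± 0.09 (adjusted p = 0.0075), and it also lay below the level at 8 h of ammonium by -0.34 ± 0.09 (adjusted p = 0.028). The call against ammonium was lost without replicate 2 or 3 of nitrate at 8 h, or without replicate 1 or 2 of ammonium at 8 h (adjusted p = 0.069 to 0.13). The abscisic acid glucosyltransferases UGT71B6 and UGT71C5, the auxin glucosyltransferase UGT84B1, and UGT71B8 and UGT84B2 were called in none of the 9 comparisons.

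**Figure D3:**
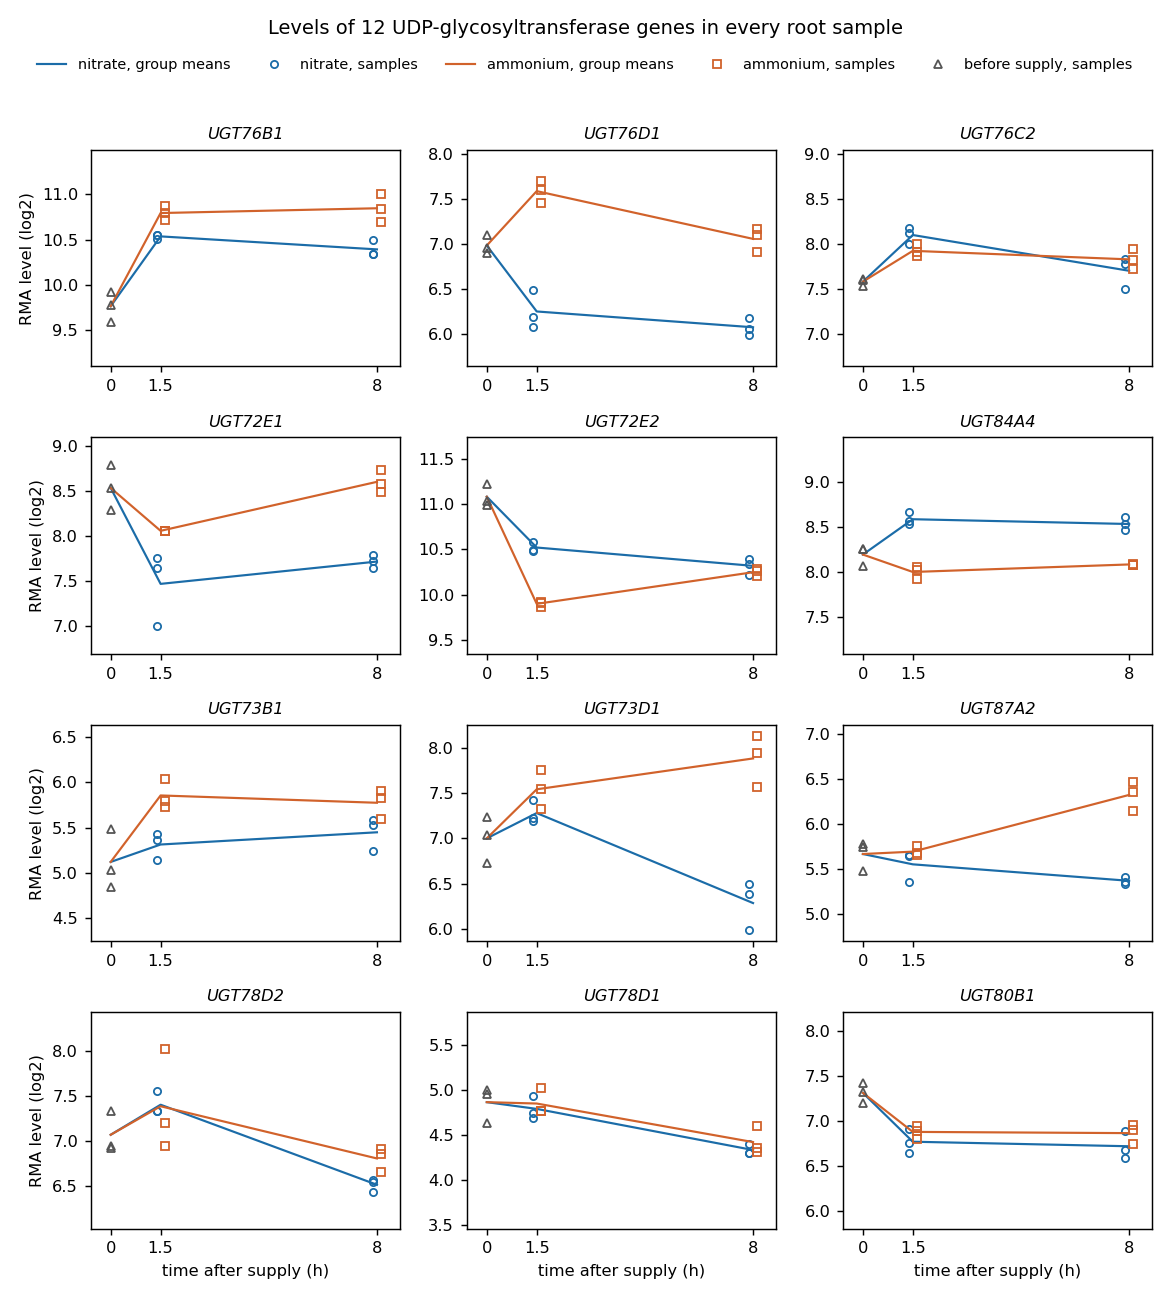
RMA level (log2) of 12 UGT genes at 0, 1.5 and 8 h of supply, with a point per sample, lines through the group means of nitrate and ammonium, and the roots before supply at 0 h. UGT76B1 lies above its level before supply with either ion, UGT72E2 below it, and UGT76D1 and UGT73D1 part between the ions.

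Among enzymes of phenylpropanoids and monolignols, 8 of 10 listed genes were members. At 1.5 h, 1 rose and 2 fell with nitrate, and 1 rose and 2 fell with ammonium. At 8 h, 1 rose and 3 fell with nitrate, and 0 rose and 2 fell with ammonium. The 3 enzymes of the UGT72E group, which glucosylate monolignols and their aldehydes, each had a pattern of their own. UGT72B1, also listed, had a probe set under another symbol and is given under other observations.

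UGT72E2 (AT5G66690), which forms the glucosides of coniferyl and sinapyl alcohol, fell in all 4 supplied groups. It read 10.50, 10.49 and 10.58 with nitrate at 1.5 h and 10.40, 10.34 and 10.21 at 8 h. It read 9.86, 9.92 and 9.91 with ammonium at 1.5 h and 10.28, 10.20 and 10.26 at 8 h, against 11.22, 11.04 and 10.99 before supply. Every supplied sample was below the roots before supply, and the samples at 1.5 h of ammonium were below all others. The fall was -0.56 ± 0.07 at 1.5 h and -0.77 ± 0.07 at 8 h of nitrate (adjusted p = 4.8e-05 and 1.1e-06), and -0.84 ± 0.07 at 8 h of ammonium (1.79-fold, adjusted p = 9.3e-07).

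The difference between the supplies in UGT72E2 was present at 1.5 h and not called at 8 h. Nitrate was higher than ammonium by 0.62 ± 0.07 at 1.5 h (1.54-fold, adjusted p = 2.7e-05), and at 8 h the difference was 0.07 (95% interval -0.08 to 0.23). The change of this difference with time was itself called (-0.55 ± 0.10, adjusted p = 0.0057). From 1.5 h to 8 h the level with ammonium rose by 0.35 ± 0.07 (adjusted p = 0.0051).

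UGT72E1 (AT3G50740), which acts on coniferyl and sinapyl aldehyde, fell with nitrate. It read 7.76, 7.004 and 7.65 with nitrate at 1.5 h and 7.72, 7.64 and 7.79 at 8 h. It read 8.06 in each of the 3 samples with ammonium at 1.5 h and 8.58, 8.73 and 8.49 at 8 h, against 8.78, 8.29 and 8.53 before supply. The nitrate samples were below all others, and those at 8 h of ammonium overlapped with the roots before supply. The fall was -1.06 ± 0.16 at 1.5 h (2.09-fold, adjusted p = 0.00017) and -0.82 ± 0.16 at 8 h of nitrate (1.76-fold, adjusted p = 0.0012).

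At 1.5 h of ammonium UGT72E1 differed from the roots before supply by -0.48 ± 0.16, which missed the threshold (adjusted p = 0.057). Nitrate was lower than ammonium by -0.88 ± 0.16 at 8 h (1.85-fold lower, adjusted p = 0.0011). At 1.5 h nitrate was lower by -0.59 ± 0.16 (adjusted p = 0.023), a call that was lost with only the compared groups in the fit (0.07), without replicate 2 of nitrate at 1.5 h (0.083) and without any 1 of the ammonium samples at 1.5 h (0.058 to 0.064). The rise from 1.5 h to 8 h of ammonium, 0.54 ± 0.16 (adjusted p = 0.035), was lost with centring on sample medians (0.062) and without any 1 of the 6 ammonium samples (0.055 to 0.12).

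UGT72E3, which forms sinapyl alcohol glucoside, averaged 9.08 ± 0.15 at 1.5 h of ammonium, against 8.80 ± 0.09 before supply (SD, n = 3 each). The rise of 0.28 ± 0.08 (adjusted p = 0.037) was lost without replicate 2 or 3 before supply or without replicate 1 or 2 of ammonium at 1.5 h (adjusted p = 0.085 to 0.14), and with only the compared groups in the fit (0.13). With nitrate at 8 h it was lower than with ammonium by -0.27 ± 0.08 (adjusted p = 0.047), a call lost under 12 of 22 alternative settings, among them the omission of any 1 of the 3 nitrate samples or of replicate 2 or 3 of ammonium at 8 h (adjusted p = 0.066 to 0.15).

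UGT84A4 (AT4G15500), which makes glucose esters of hydroxycinnamic acids, was higher with nitrate than with ammonium at both times. It read 8.66, 8.53 and 8.57 at 1.5 h and 8.53, 8.61 and 8.47 at 8 h of nitrate. It read 8.06, 8.03 and 7.92 at 1.5 h and 8.08, 8.10 and 8.08 at 8 h of ammonium, against 8.26, 8.06 and 8.26 before supply. All 6 nitrate samples were above all other samples. Nitrate exceeded ammonium by 0.58 ± 0.07 at 1.5 h (1.50-fold, adjusted p = 4.2e-05) and by 0.45 ± 0.07 at 8 h (1.36-fold, adjusted p = 0.00043). Against the roots before supply the rise with nitrate was 0.39 ± 0.07 at 1.5 h (adjusted p = 0.0012) and 0.34 ± 0.07 at 8 h (adjusted p = 0.0025), and the difference with ammonium was not called (-0.19 at 1.5 h and -0.11 at 8 h).

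UGT71C1, which glucosylates hydroxycinnamic acids in vitro, had high levels throughout, with group means of 11.38 to 11.79. At 8 h of nitrate it fell by 0.40 ± 0.06 (adjusted p = 0.00015). Its falls with ammonium were smaller, -0.26 ± 0.06 at 1.5 h (adjusted p = 0.0083) and -0.22 ± 0.06 at 8 h (adjusted p = 0.02), and both were lost with only the compared groups in the fit (0.077 and 0.098). The call at 8 h of ammonium was also lost without replicate 2 or 3 before supply or replicate 2 or 3 of ammonium at 8 h (0.053 to 0.078). The related UGT84A1 and UGT84A3, which neighbour UGT84A4, and UGT72B3 were called in none of the 9 comparisons.

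Other genes of phenylpropanoid and monolignol synthesis could be set beside these for 4 of 22 listed. HCT, the acyltransferase ahead of the lignin branch, fell in all 4 supplied groups, by 0.32 ± 0.08 and 0.59 ± 0.08 at 1.5 h and 8 h of nitrate and by 0.37 ± 0.08 and 0.33 ± 0.08 at 1.5 h and 8 h of ammonium. CCR2, a cinnamoyl-CoA reductase, rose at 1.5 h by 0.72 ± 0.14 with nitrate and 0.48 ± 0.14 with ammonium, and was not called at 8 h. The gene AT3G13610, whose enzyme F6'H1 makes the precursor of the coumarin scopoletin, rose by 0.53 ± 0.08 at 8 h of ammonium and was lower with nitrate than with ammonium there by -0.65 ± 0.08. BGLU42, a beta-glucosidase that frees coumarins from their glucosides, fell in all 4 groups, by 0.24 to 0.44.

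Among enzymes of flavonoids and anthocyanins, 4 of 10 listed genes were members. With nitrate 0 rose and 0 fell at 1.5 h, and 0 rose and 1 fell at 8 h. With ammonium 1 rose and 0 fell at 1.5 h, and 1 rose and 1 fell at 8 h. The member that rose was UGT73B1 and the member that fell was UGT78D1. UGT79B1 and UGT79B6, also listed, had probe sets under other symbols, and UGT73B2 shared a probe set. These are given under other observations.

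UGT78D2 (AT5G17050), which adds glucose to flavonols and anthocyanidins, read 7.33, 7.55 and 7.33 with nitrate at 1.5 h and 6.55, 6.44 and 6.57 at 8 h. It read 6.94, 7.20 and 8.02 with ammonium at 1.5 h and 6.65, 6.91 and 6.86 at 8 h, against 7.34, 6.93 and 6.95 before supply. Replicate 3 at 1.5 h of ammonium was the highest of all samples, and the 3 samples at 8 h of nitrate were the lowest. From 1.5 h to 8 h of nitrate the level fell by 0.89 ± 0.20 (1.85-fold, adjusted p = 0.0069), in 3 of 3 samples without overlap. With ammonium the 8 h minus 1.5 h difference was -0.58 and missed the threshold (adjusted p = 0.073). It passed under 1 of 22 alternative settings, without replicate 1 of ammonium at 1.5 h (0.016). Between the supplies these changes differed by -0.31, nitrate minus ammonium, which was not called (adjusted p = 0.6). A fall particular to nitrate was thus not shown.

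Against the roots before supply UGT78D2 was called in none of the 4 supplied groups. At 8 h of nitrate the difference was -0.55 (adjusted p = 0.061), although its samples did not overlap with those before supply. It passed the threshold under 5 alternative settings (adjusted p = 0.0026 to 0.048), the lowest without replicate 3 of ammonium at 1.5 h and another (0.028) without replicate 1 of that group. These omissions changed only the shared estimate of the spread.

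UGT78D1, which adds rhamnose to flavonols, had low levels, between 4.30 and 5.02 in all samples. It was lower at 8 h than before supply by -0.53 ± 0.11 with nitrate (adjusted p = 0.0023) and by -0.44 ± 0.11 with ammonium (adjusted p = 0.01). The call with ammonium was lost without replicate 3 before supply or replicate 2 of ammonium at 8 h (0.051 in each case). UGT78D3, the flavonol arabinosyltransferase that neighbours UGT78D2, was called in no comparison.

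UGT73B1 (AT4G34138) read 5.14, 5.43 and 5.37 with nitrate at 1.5 h and 5.24, 5.58 and 5.52 at 8 h. It read 5.73, 5.80 and 6.04 with ammonium at 1.5 h and 5.59, 5.83 and 5.90 at 8 h, against 5.49, 4.84 and 5.03 before supply. All ammonium samples were above the roots before supply, while the nitrate samples overlapped with them. The rise with ammonium was 0.74 ± 0.15 at 1.5 h (1.67-fold, adjusted p = 0.0031) and 0.66 ± 0.15 at 8 h (1.58-fold, adjusted p = 0.0055). Nitrate was lower than ammonium at 1.5 h by -0.54 ± 0.15 (adjusted p = 0.027), which was lost without replicate 1 or 3 of nitrate (0.12 and 0.059) or replicate 2 or 3 of ammonium (0.051 and 0.12) at 1.5 h. At 8 h that difference was -0.33 (95% interval -0.64 to -0.01) and was not called.

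Other flavonoid genes were measured for 2 of 15 listed. CHIL, a chalcone isomerase-like protein that enhances flavonoid production, fell in all 4 supplied groups, by 0.71 ± 0.17 and 1.93 ± 0.17 at 1.5 h and 8 h of nitrate and by 0.85 ± 0.17 and 1.36 ± 0.17 at 1.5 h and 8 h of ammonium. DFR, dihydroflavonol reductase, was near the lower quartile of the arrays and was called in none of these comparisons. Of the lists for salicylic and N-hydroxypipecolic acid (12 genes) and for cytokinin synthesis and turnover (16 genes), 0 genes had a probe set of their own in the annotation used here.

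Of enzymes of glucosinolate synthesis, UGT74B1 was measured, 1 of 2 listed. It glucosylates thiohydroximates, the step ahead of the final sulfation. It averaged 10.33 ± 0.01 at 8 h of nitrate, against 9.88 ± 0.16 before supply (SD, n = 3 each), a rise of 0.45 ± 0.08 (1.37-fold, adjusted p = 0.00053). It was also higher at 8 h of nitrate than at 8 h of ammonium, by 0.39 ± 0.08 (adjusted p = 0.0036). It was not called against the roots before supply in the other 3 supplied groups.

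Of the 2 sterol glucosyltransferases listed, UGT80A2 had a probe set under another symbol and is given under other observations. UGT80B1 (AT1G43620) was a member. It read 6.65, 6.75 and 6.91 with nitrate at 1.5 h and 6.59, 6.68 and 6.89 at 8 h. It read 6.80, 6.89 and 6.95 with ammonium at 1.5 h and 6.96, 6.74 and 6.90 at 8 h, against 7.20, 7.32 and 7.42 before supply. Every supplied sample was below the roots before supply. The falls were -0.54 ± 0.09 and -0.59 ± 0.09 at 1.5 h and 8 h of nitrate, and -0.43 ± 0.09 and -0.45 ± 0.09 at 1.5 h and 8 h of ammonium (adjusted p = 0.00024 to 0.0053), and UGT80B1 was called in no comparison of nitrate with ammonium.

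Of the enzymes listed for stress, 3 of 6 were members, and 2 of them, UGT73B4 and UGT73B5, rose with ammonium at both times. They are neighbouring genes whose relatives are known for roles in redox state and pathogen defence. UGT73B5 averaged 7.86 ± 0.08 at 1.5 h and 7.85 ± 0.07 at 8 h of ammonium, against 7.50 ± 0.26 before supply (SD, n = 3 each). Its rises of 0.35 ± 0.10 (adjusted p = 0.035 at 1.5 h and 0.03 at 8 h) were called although replicate 1 before supply read 7.80 and overlapped with the ammonium samples. They were lost without replicate 2 or 3 before supply (adjusted p = 0.14 and 0.15 at 1.5 h, 0.11 and 0.13 at 8 h), without any 1 of the ammonium samples at 1.5 h (0.054 to 0.13), without replicate 1 or 3 of ammonium at 8 h (0.094 and 0.089), and with only the compared groups in the fit (0.15 at 1.5 h and 0.12 at 8 h).

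Against ammonium, nitrate left UGT73B5 lower by -0.40 ± 0.10 at 1.5 h (adjusted p = 0.021) and by -0.39 ± 0.10 at 8 h (adjusted p = 0.024). The first call was lost without replicate 1 of nitrate or of ammonium at 1.5 h (0.092 and 0.09), and the second without replicate 1 or 3 of nitrate or replicate 1 or 3 of ammonium at 8 h (0.062 to 0.084).

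UGT73B4 lay near the lower quartile of the arrays with nitrate and before supply, and between 4.81 and 5.09 in all ammonium samples, above all others. Its rise with ammonium was 0.45 ± 0.12 at 1.5 h (adjusted p = 0.016) and 0.46 ± 0.12 at 8 h (adjusted p = 0.012). Nitrate was lower than ammonium by -0.47 ± 0.12 at 1.5 h (adjusted p = 0.015) and by -0.66 ± 0.12 at 8 h (adjusted p = 0.0012). The rise at 1.5 h was lost without replicate 2 or 3 before supply or replicate 1 of ammonium (0.062, 0.051 and 0.074), that at 8 h without replicate 2 of ammonium (0.065), and the difference at 1.5 h without replicate 1 or 2 of nitrate or replicate 1 of ammonium (0.067, 0.058 and 0.071). The third member, UGT73C1, was called in no comparison.

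The 19 members in none of the lists included the gene with the widest spread of group means. UGT73D1 (AT3G53150) read 7.23, 7.43 and 7.19 with nitrate at 1.5 h and 6.49, 6.38 and 5.98 at 8 h. It read 7.76, 7.55 and 7.33 with ammonium at 1.5 h and 8.14, 7.95 and 7.58 at 8 h, against 7.23, 6.73 and 7.04 before supply. The samples at 8 h of nitrate were below all others, and all ammonium samples were above the roots before supply. The change at 8 h was -0.72 ± 0.17 with nitrate (1.64-fold lower, adjusted p = 0.005) and 0.89 ± 0.17 with ammonium (1.85-fold higher, adjusted p = 0.0013).

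At 8 h UGT73D1 was lower with nitrate than with ammonium by -1.60 ± 0.17 (3.04-fold lower, adjusted p = 5.5e-06), while at 1.5 h the difference of -0.26 (95% interval -0.62 to 0.09) was not called. The change of the difference with time was -1.34 ± 0.23 (adjusted p = 0.0035). Within nitrate the level at 8 h was lower than at 1.5 h by -0.998 ± 0.17 (adjusted p = 0.00073). The rise at 1.5 h of ammonium, 0.54 ± 0.17 (adjusted p = 0.039), was lost without replicate 2 or 3 before supply (0.16 and 0.078), without replicate 1 or 2 of ammonium at 1.5 h (0.16 and 0.091), without replicate 1 of nitrate at 1.5 h (0.05) and with only the compared groups in the fit (0.057).

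UGT87A2 (AT2G30140), known for a role in flowering time, rose late with ammonium. It read 5.64, 5.65 and 5.36 with nitrate at 1.5 h and 5.36, 5.33 and 5.42 at 8 h. It read 5.75, 5.65 and 5.67 with ammonium at 1.5 h and 6.15, 6.46 and 6.36 at 8 h, against 5.48, 5.78 and 5.74 before supply. The 3 samples at 8 h of ammonium were above all others. The rise there was 0.66 ± 0.10 (1.57-fold, adjusted p = 0.00026), and the level exceeded that at 1.5 h of ammonium by 0.63 ± 0.10 (adjusted p = 0.00075).

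With nitrate UGT87A2 was lower than with ammonium at 8 h by -0.95 ± 0.10 (1.93-fold lower, adjusted p = 7.3e-06), and the change of this difference with time was -0.81 ± 0.14 (adjusted p = 0.0037). The fall at 8 h of nitrate, -0.30 ± 0.10 (adjusted p = 0.048), was lost under 15 of 22 alternative settings (0.053 to 0.16), including those without replicate 2 or 3 before supply or without any 1 of the nitrate samples at 8 h.

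UGT85A2 (AT1G22360) was lower with ammonium. It read 8.35, 8.17 and 8.25 with nitrate at 1.5 h and 8.19, 8.34 and 8.26 at 8 h. It read 7.83, 7.71 and 7.94 with ammonium at 1.5 h and 7.86, 7.55 and 7.70 at 8 h, against 8.18, 8.09 and 8.05 before supply. All ammonium samples were below all other samples. Nitrate exceeded ammonium by 0.43 ± 0.09 at 1.5 h (1.35-fold, adjusted p = 0.0038) and by 0.56 ± 0.09 at 8 h (1.47-fold, adjusted p = 0.00037). The fall with ammonium was -0.40 ± 0.09 at 8 h (adjusted p = 0.0042). The fall at 1.5 h of ammonium, -0.28 ± 0.09 (adjusted p = 0.044), was lost under 12 of 22 alternative settings (0.05 to 0.18), including those without any 1 of the samples before supply or without replicate 1 or 2 of ammonium at 1.5 h.

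UGT71B5 (AT4G15280) had low levels, near the lower quartile of the arrays. It read 3.94, 4.22 and 4.01 with nitrate at 1.5 h and 4.38, 4.48 and 4.25 at 8 h. It read 4.62, 4.35 and 4.40 with ammonium at 1.5 h and 4.17, 4.31 and 4.21 at 8 h, against 4.38, 4.16 and 4.34 before supply. No supplied group was called against the roots before supply. Nitrate was lower than ammonium at 1.5 h by -0.40 ± 0.10 (adjusted p = 0.013), which was lost without replicate 1 or 3 of nitrate or replicate 1 of ammonium at 1.5 h (0.056 to 0.073). The change of the difference with time was 0.54 ± 0.14 (adjusted p = 0.035), lost with a second quantile normalization (0.071), without replicate 1 or 3 of nitrate or replicate 1 of ammonium at 1.5 h, and without replicate 1 or 2 of nitrate or replicate 1 or 3 of ammonium at 8 h (0.065 to 0.089).

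UGT71C4 and UGT71C3 are neighbours on the chromosome. UGT71C4 fell by 0.35 ± 0.07 at 1.5 h of ammonium and at 8 h by 0.45 ± 0.07 with nitrate and 0.38 ± 0.07 with ammonium (adjusted p = 0.0048, 0.00031 and 0.0018). UGT71C3 glucosylates methyl salicylate but was in none of the role lists, so the counts for hormones and defence signals leave it out. It fell at 1.5 h by 0.46 ± 0.12 with nitrate (adjusted p = 0.017) and 0.39 ± 0.12 with ammonium (adjusted p = 0.042). The call with nitrate was lost without replicate 1 before supply or replicate 1 or 3 of nitrate at 1.5 h (0.057 to 0.083). That with ammonium was lost under 11 of 22 alternative settings (0.052 to 0.17), including those without any 1 of the samples before supply or without replicate 1 or 2 of ammonium at 1.5 h.

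**Figure D4:**
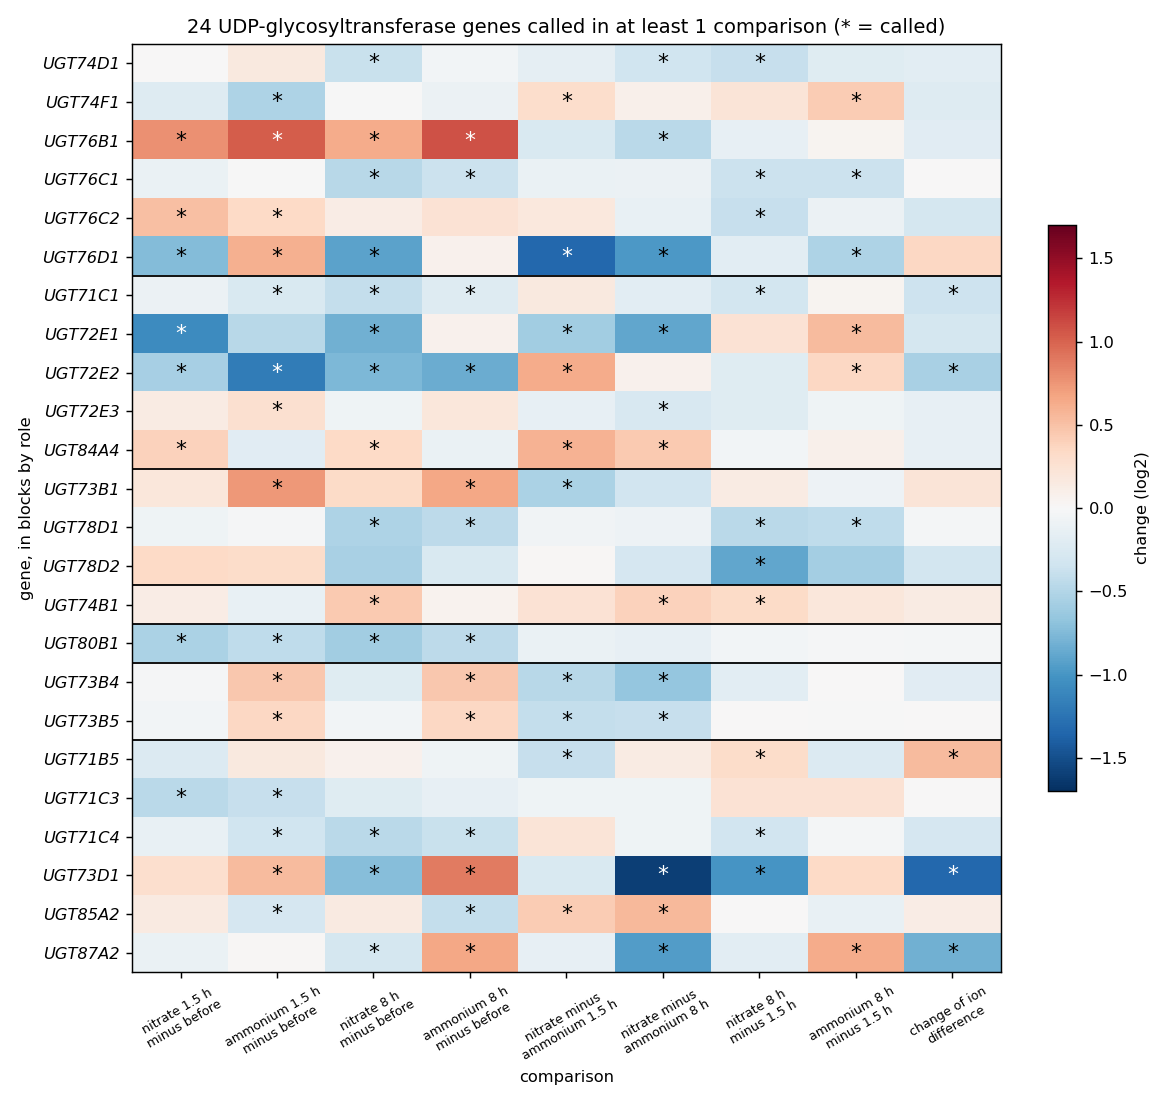
Differences in log2 level of the members called at least once, by comparison, with an asterisk where limma's adjusted p was below 0.05. Rows are genes grouped by role and colours run from lower to higher in the group named first. UGT76B1 is higher and UGT72E2 and UGT80B1 are lower in all 4 comparisons with the roots before supply.

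The direct comparison of the supplies called 10 of 47 members at 1.5 h (21.3%, beside 10.7% of all probe sets). With nitrate 4 were higher than with ammonium (UGT72E2, UGT74F1, UGT84A4 and UGT85A2, beside 5.61% of all probe sets) and 6 were lower (UGT71B5, UGT72E1, UGT73B1, UGT73B4, UGT73B5 and UGT76D1, beside 5.08%). The count at 1.5 h was 6 without replicate 1 of nitrate and 5 without replicate 1 of ammonium at that time. At 8 h the comparison called 12 members (25.5%, beside 10.7% of all probe sets). With nitrate 3 were higher (UGT74B1, UGT84A4 and UGT85A2, beside 5.4% of all probe sets) and 9 were lower (UGT72E1, UGT72E3, UGT73B4, UGT73B5, UGT73D1, UGT74D1, UGT76B1, UGT76D1 and UGT87A2, beside 5.28%). Of the called members, 5 at 1.5 h and 6 at 8 h differed by at least 0.5 log2 without overlap, beside 4.79% and 5.04% of all probe sets. In these comparisons the hypoxia genes had a median of -0.66 log2 at 1.5 h and -1.50 at 8 h, nitrate minus ammonium, with 1 and 2 of 13 called lower. Replicates within a group varied in the hypoxia genes, as given above. The part of these genes in the members' differences was not tested.

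**Figure D5:**
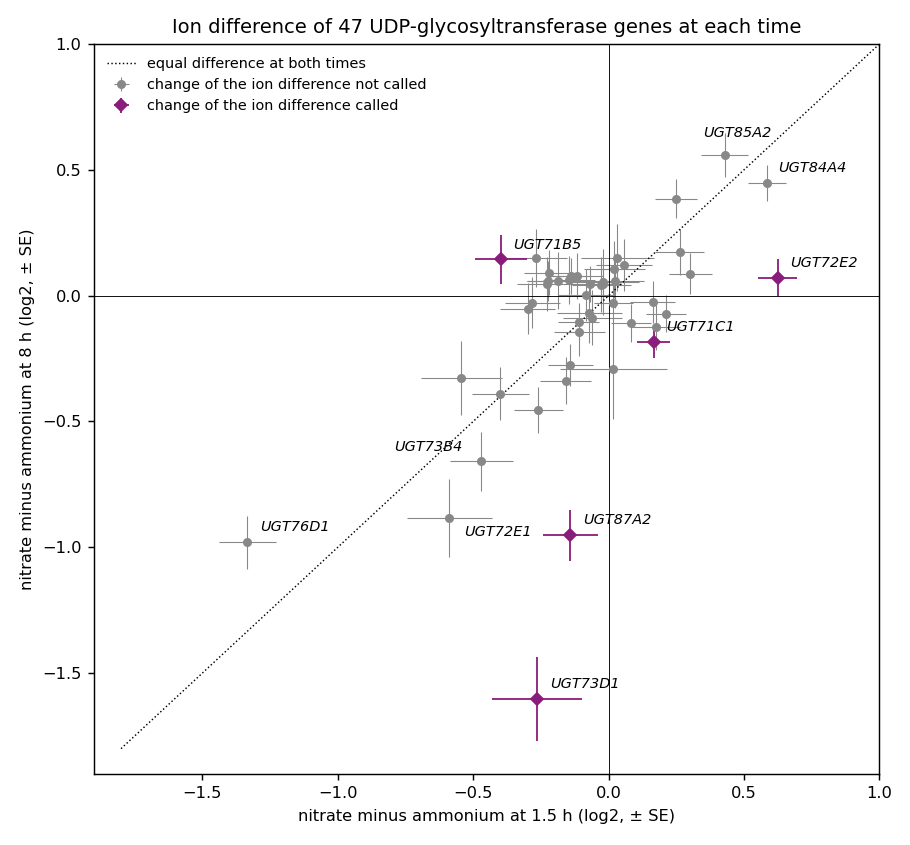
Difference in log2 level between roots with nitrate and roots with ammonium at 1.5 h (horizontal axis) and at 8 h (vertical axis), with a point per UGT gene. UGT73D1 and UGT87A2 lie near 0 at 1.5 h and far below 0 at 8 h, UGT76D1 lies below 0 at both times, and UGT84A4 and UGT85A2 lie above 0 at both times.

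The difference between the supplies changed with time for 5 members (10.6%, beside 4.5% of all probe sets). It became more negative for 4, UGT73D1, UGT87A2, UGT72E2 and UGT71C1 (beside 2.22% of all probe sets), and more positive for UGT71B5 (beside 2.28%). The count was 3 without replicate 3 of nitrate or replicate 1 of ammonium at 1.5 h, replicate 2 of nitrate at 8 h, or replicate 1 or 3 of ammonium at 8 h. For UGT71C1 the change was -0.35 ± 0.09 (adjusted p = 0.03), with differences of 0.17 at 1.5 h and -0.19 at 8 h of which neither was called. That call was lost with centring on sample medians (0.083), without replicate 2 or 3 of nitrate or replicate 1 or 3 of ammonium at 1.5 h, and without replicate 2 or 3 of nitrate or replicate 1 or 3 of ammonium at 8 h (0.05 to 0.074).

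Between the times within a supply, 10 members were called with nitrate (21.3%, beside 11.9% of all probe sets). At 8 h, 2 were higher than at 1.5 h (UGT71B5 and UGT74B1, beside 5.81% of all probe sets) and 8 were lower (UGT71C1, UGT71C4, UGT73D1, UGT74D1, UGT76C1, UGT76C2, UGT78D1 and UGT78D2, beside 6.05%). With ammonium 7 were called (14.9%, beside 11.5% of all probe sets), 4 of them higher at 8 h (UGT72E1, UGT72E2, UGT74F1 and UGT87A2, beside 5.82% of all probe sets) and 3 lower (UGT76C1, UGT76D1 and UGT78D1, beside 5.64%). Called changes of at least 0.5 log2 without overlap numbered 2 with nitrate and 3 with ammonium, beside 4.59% and 4% of all probe sets. UGT76C1 fell between these times with either supply, by 0.36 ± 0.08 with nitrate and 0.37 ± 0.08 with ammonium, and UGT78D1 by 0.46 ± 0.11 and 0.43 ± 0.11. The call of UGT71B5 (adjusted p = 0.045) was lost under 13 of the 21 alternative settings run for it, including the omission of replicate 1 or 3 at 1.5 h or replicate 1 or 2 at 8 h of nitrate (0.1 to 0.18). With nitrate, UGT71C4 was lost without replicate 3 at 1.5 h (0.053), UGT74B1 without replicate 1 at 1.5 h (0.056), UGT74D1 without replicate 3 at 8 h (0.061) and UGT78D1 without replicate 2 at 1.5 h (0.063). With ammonium, UGT78D1 was lost without replicate 2 at 1.5 h (0.09) or replicate 1 or 2 at 8 h (0.077 and 0.078), and with a second quantile normalization (0.053).

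The members also share chromosomal position. By gene order in RefSeq's annotation, 31 of the 47 genes lay in 13 clusters whose members were at most 3 protein-coding genes apart, and 16 were single. Some neighbours moved alike, as UGT73B4 and UGT73B5 did with ammonium. UGT76C2 rose early while UGT76C1 fell late. Several neighbours of called members lay below the lower quartile of the array in every sample. Among them were UGT84A3, UGT85A5 and UGT73C7, beside UGT84A4, UGT85A2 and UGT73D1. In the cluster of UGT85A2, UGT85A7 and UGT85A3 were above it in every sample, and UGT84A1, beside UGT84A4, was above it in 14 samples. None of these 3 was called in any comparison. Neighbours were not tested against each other. Neighbouring genes of this family are related in sequence, and whether probes of one bind the transcript of another was not tested.

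The remaining 23 members were called in none of the 9 comparisons. Of these, 12 were below the lower quartile of the array in every sample (UGT71B6, UGT73C1, UGT73C2, UGT73C7, UGT76E1, UGT76E11, UGT76E12, UGT78D3, UGT84A3, UGT84B1, UGT84B2 and UGT85A5), so that their transcripts were not shown to be present. Among the others UGT88A1 came nearest to the threshold, with 0.42 ± 0.13 at 1.5 h of nitrate (adjusted p = 0.051) and 0.38 ± 0.13 at 1.5 h of ammonium (adjusted p = 0.072).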

How the data were processed

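The authors deposited 1 value per probe set and sample. RMA and limma are named in the submitters' processing notes, without version or role, and the log2 scale of the deposited values was read from their range of 2.45 to 13.96. The values were used as deposited, with no filter, and no scan files were used here.

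The array's annotation table named 1 gene for 13513 probe sets, several for 503 and none for 8730. RefSeq's gene table (assembly TAIR10.1) matched 13436 of the first and lists 58 UGT symbols.

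All 22746 probe sets were fitted with limma 3.58.1 (R 4.3.3), with 5 group means over 15 samples, and 9 comparisons were tested two-sided with Benjamini-Hochberg adjustment within each and a threshold of 0.05. An exact permutation test of 3 samples against 3 cannot go below 0.1 and was not used. Figures were drawn in Python 3.11.15 with matplotlib 3.10.9.

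Members given in every sample were the 4 example genes of the rule and, per comparison, up to 4 called rises and 4 called falls of at least 0.5 log2 without overlap between groups (overlap was disregarded where the ion difference was compared between times). Other called members are given by their changes. The members, gene lists and tests were chosen with earlier results of these data known.

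The procedure was tested on simulated data for nitrate at 8 h against before supply over 22746 probe sets. It recovered 68.7%, 97% and 100% of changes of 0.5, 1 and 2 log2, and 5 of 182 calls were false. The simulated noise was independent between samples, and only 67, 67 and 66 probe sets were changed, at 8 h of nitrate alone. The data gave 4689 calls in that comparison, so these rates need not hold for them. Alternatives were other normalizations, a filter on low values, array weights, a variance trend, a replicate block, fits with only the compared groups, and omission of each sample. Replicate numbers were not used to pair samples.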

Additional observations from a re-analysis of the deposited data

Results flagged for a closer look

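For 5 members the difference between nitrate and ammonium was not the same at 1.5 h and 8 h, by limma's test of the change of that difference (adjusted p below 0.05). UGT73D1 had the largest change among them, -1.34 log2 (adjusted p = 0.0035), with nitrate minus ammonium at -0.26 at 1.5 h and -1.60 at 8 h. UGT87A2 changed by -0.81 (adjusted p = 0.0037), with differences of -0.14 and -0.95. UGT72E2 changed by -0.55 (adjusted p = 0.0057), with differences of 0.62 and 0.07. UGT71B5 changed by 0.54 (adjusted p = 0.035), with differences of -0.40 and 0.14, at levels near the lower quartile of the arrays. UGT71C1 changed by -0.35 (adjusted p = 0.03), with differences of 0.17 and -0.19. The calls of UGT73D1, UGT87A2 and UGT72E2 held under all 22 alternative settings. That of UGT71B5 was lost under 8 of the 21 run for it and that of UGT71C1 under 9 of 22 (adjusted p = 0.065 to 0.089 and 0.05 to 0.083).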

How the results depend on the processing

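Over 22 alternative settings, 15 of them the omission of 1 sample each, 62 of the 94 calls of a member in a comparison held under all settings run for them, 32 were lost under at least 1, and 0 changed sign. For UGT71B5, UGT73B4 and UGT78D1 only 21 settings were run, since the filter on means under 5 log2 removed them. With array weights, which gave the samples before supply very unequal weights (0.252, 0.628 and 7.64), 19 members were called with nitrate and 23 with ammonium in the 1.5 h comparisons with the roots before supply, beside 8 and 15. Omitting 1 sample gave 7 to 9 and 9 to 16 members in these comparisons, and in those at 8 h 13 to 15 with nitrate and 10 to 14 with ammonium. It gave 5 to 14 and 9 to 13 for nitrate against ammonium at 1.5 h and 8 h, 8 to 11 and 5 to 7 for 8 h against 1.5 h of nitrate and of ammonium, and 3 to 5 for the change of the ion difference. The count at 1.5 h of ammonium was 9 without replicate 3 before supply or replicate 1 of ammonium at 1.5 h. That for nitrate against ammonium at 1.5 h was 6 without replicate 1 of nitrate and 5 without replicate 1 of ammonium. The count for the change of the ion difference was 3 without replicate 3 of nitrate or replicate 1 of ammonium at 1.5 h, replicate 2 of nitrate at 8 h, or replicate 1 or 3 of ammonium at 8 h. The cause was not tested. Deviations of samples with the same replicate number correlated at -0.16 to 0.37 over 30 pairs (median 0.09, 14 above 0.1), against a median of -0.05 over 60 pairs with different numbers (10 above 0.1), and 8 of 15 samples correlated best with a sample of their own number. The median was thus higher for same-number pairs, though not every one was above 0.1, and the labels name no shared batch. The numbers were not taken to pair the samples, and whether samples of the same number share an effect was not tested. With the replicate number as a block the counts in the order above were 9, 16, 14, 13, 13, 11, 9, 9 and 5. A choice among several probe sets of a gene was not run, since 0 members had several. The low signal of 12 members limits what their lack of calls shows.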

Other observations

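Further enzymes of the family were on probe sets that the rule for members left out, because the probe set names several genes or the gene goes by another symbol. They were looked at after the members and were not recomputed under the alternative settings. The probe set shared by UGT73B2 and UGT73B3, flavonoid and defence related enzymes, was lower than before supply by -0.51 ± 0.14 log2 at 1.5 h and -0.96 ± 0.14 at 8 h of nitrate (limma, adjusted p = 0.024 and 0.00012), and was not called with ammonium (0.03 and 0.08). It was lower with nitrate than with ammonium by -0.54 ± 0.14 at 1.5 h (adjusted p = 0.021) and by -1.04 ± 0.14 at 8 h (adjusted p = 0.00011). UGT73B4 and UGT73B5 were also lower with nitrate than with ammonium, but by a rise with ammonium, while the shared probe set fell with nitrate, and how much of its signal each gene gives was not measured.

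GT72B1, also named UGT72B1, which glucosylates monolignols and chlorinated phenols, was lower than before supply by -0.74 ± 0.12 at 1.5 h and -0.84 ± 0.12 at 8 h of nitrate, and by -0.74 ± 0.12 at 1.5 h of ammonium (adjusted p = 0.0003, 5.7e-05 and 0.00039). At 8 h of ammonium the difference was -0.27 and was not called. GT72B1 was lower with nitrate than with ammonium at 8 h by -0.57 ± 0.12 (adjusted p = 0.0035). With ammonium it was higher at 8 h than at 1.5 h by 0.47 ± 0.12 (adjusted p = 0.015). SGT, also named UGT80A2, the other sterol glucosyltransferase, was lower in all 4 supplied groups, by -0.28 ± 0.07 and -0.28 ± 0.07 at 1.5 h and 8 h of nitrate and by -0.32 ± 0.07 and -0.28 ± 0.07 at 1.5 h and 8 h of ammonium (adjusted p = 0.0054 to 0.012). The probe set shared by UGT71D1 and AT2G29710 was higher in all 4, by 0.63 to 0.72 log2 (adjusted p = 0.012 to 0.027). UF3GT (UGT79B1), an anthocyanin xylosyltransferase, and the probe set shared by UGT89B1 and AT1G73885 were called in none of the 9 comparisons. AT5G54010 (UGT79B6) was called only in nitrate minus ammonium at 1.5 h (-0.28 ± 0.08, adjusted p = 0.04), at a mean level of 3.53 log2, below the lower quartile of the arrays.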
